A study of Caenorhabditis elegans with 12 samples.

Results

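The genes described here are 9 genes of *C*. *elegans* that make S-adenosylmethionine (SAM), make phosphocholine by methylation, or carry phosphocholine into phosphatidylcholine. They were chosen by gene name, and all 9 were found among the 12749 genes of the 3 deposited tables, each of them in 3 of 3 tables. They are the SAM synthase genes *sams-1*, *sams-3*, *sams-4* and *sams-5* and the phosphoethanolamine methyltransferase genes *pmt-1* and *pmt-2*. The others are *pcyt-1*, whose enzyme activates phosphocholine with CTP, and *cept-1* and *cept-2*, grouped here as cholinephosphotransferase genes. Libraries were made from total RNA of whole adults at day 1, in 4 groups of 3 libraries, 12 in all. The groups were Bristol N2 wild-type worms at 25 °C, N2 at 15 °C, *mdt-15(tm2182)* mutants at 25 °C and *mdt-15(tm2182)* mutants at 15 °C. Worms were kept at their temperature from the L1 larval stage and fed OP50 bacteria, and the 3 libraries of a group are independent biological repeats per the labels.

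The tables hold a single average level per gene over libraries. They also hold the authors' own fold changes, test statistics and p-values, which were not used here. The average is the same in tables of different groups, apart from a shift of 0.000293 (log2) in the table of the 15 °C groups that all genes share. It is therefore taken here as an average over a common set of libraries from several groups. The table of the 15 °C groups also lacks 306 of the genes. The sources used here do not state which libraries were averaged, or whether the tables come from a single fit. With such an average no member can be compared between genotypes or temperatures. No error can be given for it either, since the spread between libraries and the depth of each library are unknown here. Differences between genes below are descriptions of these averages, with no test. An average of log2 values is the log of a geometric mean, and it can hide libraries that differ.

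SAM is the main methyl donor of the cell, and SAM synthases make it from methionine and ATP. In *C*. *elegans*, PMT-1 adds the first methyl group to phosphoethanolamine and PMT-2 adds the later ones, which gives phosphocholine, and each step uses SAM. Phosphocholine is then joined to CTP by PCYT-1 and passed to diacylglycerol by cholinephosphotransferases, which gives phosphatidylcholine, a main phospholipid of membranes and of the surface of lipid droplets. In worms, loss of *sams-1* lowers phosphatidylcholine and enlarges lipid droplets, and it activates SBP-1, the worm SREBP, a transcription factor that works with the Mediator subunit MDT-15.

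The SAM synthase genes were expressed at unequal average levels. The authors' average was 5.29 log2 cpm for *sams-1* (WBGene00008205), 5.91 for *sams-3* (WBGene00015538), 5.09 for *sams-4* (WBGene00015540) and 2.94 for *sams-5* (WBGene00006416). As geometric means these are 39.2, 59.9, 34.1 and 7.66 cpm. Cpm depends on gene length, so levels of different genes were set side by side per 1000 coding bases. On that scale *sams-3* was highest with 5.63 log2 cpm per 1000 coding bases. It was followed by *sams-1* with 5.02, *sams-4* with 4.82 and *sams-5* with 2.66. The gene *sams-3* was thus 1.52 times as high as *sams-1* and 7.83 times as high as *sams-5* per 1000 coding bases. With exonic bases instead, these ratios were 1.73 and 5.83. The order of *sams-1* and *sams-4*, which differed by 0.21 on the log2 scale per 1000 coding bases, turned when exonic bases were used instead, with a difference of -0.05. Of the summed geometric means of the 4 genes per 1000 coding bases, *sams-3* made up 42.5%, *sams-1* 27.9%, *sams-4* 24.2% and *sams-5* 5.43%. The members' levels on all 3 scales are plotted by gene.

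**Figure D1:**
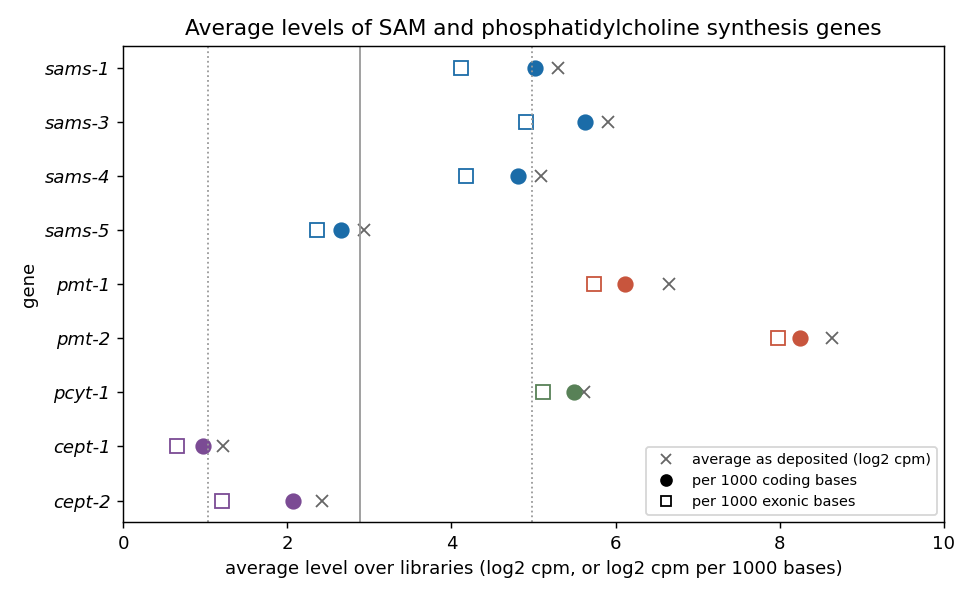
Average level of each of the 9 genes, on the horizontal axis as log2 cpm as deposited (crosses), per 1000 coding bases (filled circles) and per 1000 exonic bases (open squares), coloured by step of the pathway. The solid and dotted vertical lines are the median and the quartiles of protein-coding genes per 1000 coding bases; *pmt-2* lies highest at 8.24 and *cept-1* lowest at 0.97 on that scale.

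The genes *sams-3*, *sams-4* and *sams-5* share their gene structure. In Ensembl release 115 (WBcel235, the assembly that ce11 also names) each has 6 coding exons, and in the order of transcription these span 72, 61, 123, 383, 410 and 163 bases in all 3 genes. Each thus codes for 404 residues over 1212 coding bases. The gene *sams-1* has 4 coding exons of 69, 184, 793 and 163 bases and codes for 403 residues. Its last coding exon has the length of the last in the other 3 genes. The letters of these genes were not compared here. For reads that match more than a single SAM synthase gene, the sources used here do not say how they were counted, so the split of the level between the genes of like structure is uncertain.

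The genes *sams-4* (chromosome IV, 5844061 to 5846369, minus strand) and *sams-3* (chromosome IV, 5848657 to 5850843, plus strand) lie head to head. Their starts are separated by 2287 bases, with 1 gene that does not code for protein between them and 0 protein-coding genes. The average of *sams-3* was 1.76 times that of *sams-4*, for equal coding length. The gene *sams-5* (chromosome IV, 6277433 to 6279522, minus strand) lies 426589 bases beyond the end of *sams-3*, and the gene *sams-1* lies on chromosome X (11965962 to 11969893, plus strand). The gene model of *sams-3* shares 18 exonic bases with *C06E7.4*, a protein-coding gene on the other strand with an average of 1.91 log2 cpm. The sources used here do not say whether reads were counted by strand.

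**Figure D2:**
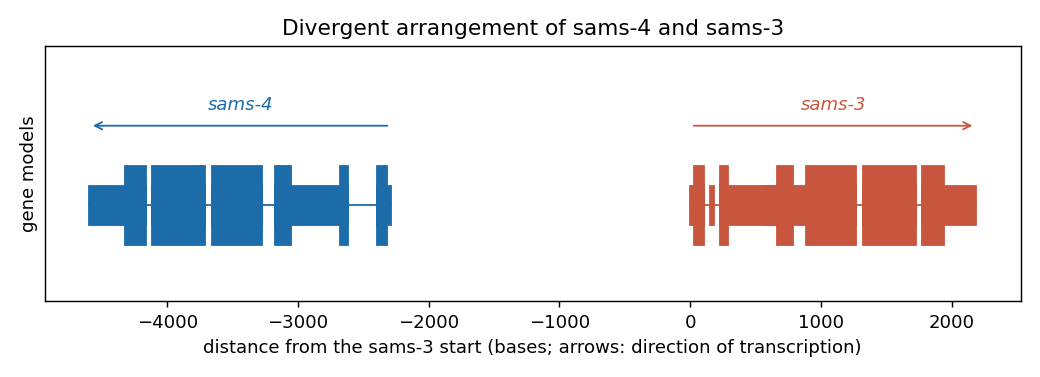
Gene models of *sams-4* and *sams-3*, plotted by distance in bases from the *sams-3* start, with tall boxes for coding and low boxes for other exonic sequence over all annotated transcripts. The arrows show that both are transcribed away from the 2287 bases between them.

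The methyltransferase gene *pmt-2* (WBGene00018811; chromosome V, 4628580 to 4635263, plus strand) had the highest average of the 9 genes, 8.63 log2 cpm or a geometric mean of 396.5 cpm. Per 1000 coding bases its level was 8.24 (log2), which was rank 553 of the 12234 protein-coding genes with a coding length. The gene *pmt-1* (WBGene00022781; chromosome II, 5278090 to 5282523, minus strand), which acts a step earlier, had 6.65 log2 cpm and 6.11 log2 cpm per 1000 coding bases, rank 1855. The level of *pmt-2* was 4.38 times that of *pmt-1* per 1000 coding bases and 4.72 times per 1000 exonic bases. Of the sum of both genes, *pmt-2* made up 81.4%. The proteins are of like size, with 484 residues for *pmt-1* and 437 for *pmt-2*. Of the 2 genes, *pmt-1* has 8 annotated transcripts and *pmt-2* has 1.

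The gene *pcyt-1* (WBGene00017241; chromosome X, 7572357 to 7581055, plus strand) codes for the enzyme that makes CDP-choline from phosphocholine, the regulated step of the CDP-choline pathway in animals. Its average was 5.62 log2 cpm, and 5.50 per 1000 coding bases, which was rank 2460. It lay close to *sams-3* on that scale, 0.13 (log2) below it. Per 1000 exonic bases the order turned, with *sams-3* minus *pcyt-1* at -0.21. The protein-coding genes *unc-98* and *F08C6.18* of the opposite strand overlap its span, and neither shares an exonic base with it.

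The lowest averages belonged to the final step. The gene *cept-2* (WBGene00013024; chromosome V, 14347766 to 14351482, plus strand) had 2.42 log2 cpm and 2.07 per 1000 coding bases, rank 7413. The gene *cept-1* (WBGene00009057; chromosome X, 12762078 to 12765898, plus strand) had 1.22 log2 cpm, a geometric mean of 2.32 cpm, and 0.97 log2 cpm per 1000 coding bases, rank 9250. The level of *cept-2* was 2.14 times that of *cept-1* per 1000 coding bases and 1.46 times per 1000 exonic bases. An antisense RNA gene, *Y49A3A.6*, shares 228 exonic bases with *cept-2* on the other strand and is not among the genes of the tables. The span of *cept-1* lies within *nhr-27*, a gene of the other strand that is not among the genes of the tables either and shares no exonic base with it. Per 1000 coding bases *pcyt-1* was 10.7 times as high as *cept-2* and 23.0 times as high as *cept-1*. On that scale *pmt-2* was 153.9 times as high as *cept-1*. With exonic bases instead, these ratios were 15.1, 22.0 and 159.7.

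Among the protein-coding genes of the tables, 6 of the 9 members lay above the median gene (2.88 log2 cpm per 1000 coding bases) and 5 above the upper quartile (4.98). The 5 were *pmt-2*, *pmt-1*, *sams-3*, *pcyt-1* and *sams-1*. The gene *sams-4* lay just below the quartile with 4.82. These counts changed with the scale and with the genes ranked against. Per 1000 exonic bases the background was the 12712 genes of any type with an exonic length. There 6 members lay above the median and 4 above the upper quartile, since *sams-1* fell to percentile 70.2. On the levels as deposited, among all 12749 genes, 7 lay above the median and 6 above the upper quartile. In that ranking *sams-4* was at percentile 77.3 and *sams-5* at 51.0. Among protein-coding genes only, *sams-5* as deposited was at percentile 49.96, below the median. The members *sams-5*, *cept-2* and *cept-1* lay below the median gene per 1000 coding bases. By percentile per 1000 coding bases the members ran from 24.4 for *cept-1* to 95.5 for *pmt-2*. The median of the members was 5.02 log2 cpm per 1000 coding bases.

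**Figure D3:**
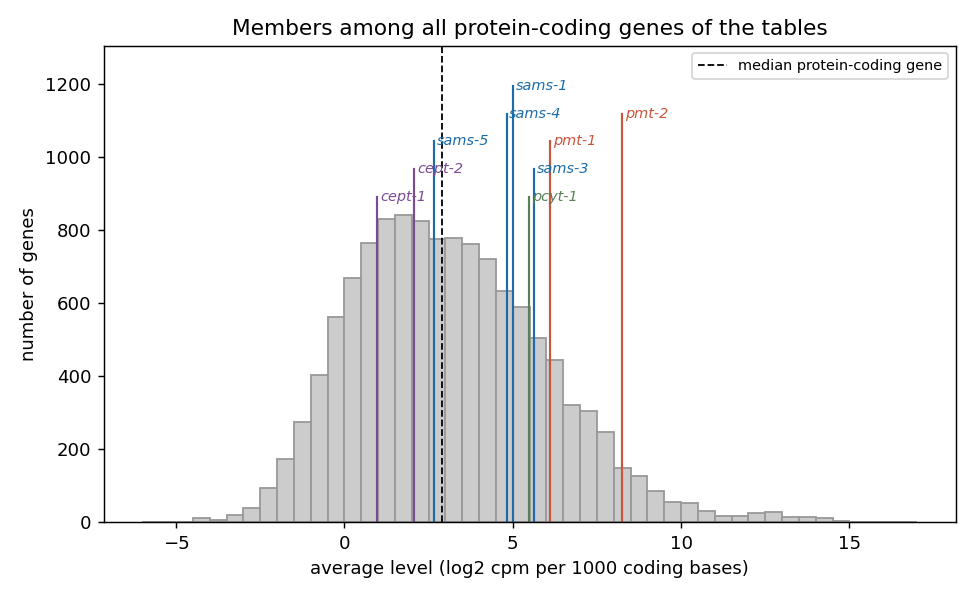
Number of protein-coding genes by average level (log2 cpm per 1000 coding bases, bins of 0.5), with a vertical line for each of the 9 genes and a dashed line for the median gene at 2.88. The genes *pmt-2* at 8.24 and *pmt-1* at 6.11 lie in the upper part of the distribution, and *cept-1* at 0.97 in the lower part.

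Other genes of SAM and phospholipid metabolism, or linked to it, were taken from a list of 25. Of these 24 are in the tables, 3 of them under another name. Only *ckb-3* of the list, which is named for choline kinase, is not among the genes of the tables. Per 1000 coding bases 11 of the 24 lay above the median gene and 4 above the upper quartile, and their median was 2.73 log2. The list also holds the regulator genes *sbp-1* and *mdt-15* and the histone methyltransferase gene *set-2*. These lay at 0.65, -1.02 and -2.75, below the median gene, and enter both the count and the median. The highest were *ahcy-1* (9.61), whose enzyme breaks down the S-adenosylhomocysteine left by methyl transfer, the serine hydroxymethyltransferase gene *mel-32* (8.42) and *cth-2* (6.63), named for cystathionine gamma-lyase. Both *ahcy-1* and *mel-32* were above *pmt-2* on this scale. The methionine synthase gene *metr-1*, whose enzyme remakes methionine, lay at 2.60, and *mtrr-1*, whose enzyme reactivates methionine synthase, at 5.07.

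Genes of the steps that compete with or feed the members were spread widely. The choline kinase genes, which make phosphocholine from choline, were *ckb-2* at 4.88, *cka-1* at 3.33, *ckb-4* at 2.45, *ckb-1* at 1.78 and *cka-2* at 0.63 log2 cpm per 1000 coding bases. For the ethanolamine branch, *pcyt-2.1* lay at 4.90, *pcyt-2.2* at 2.51 and *ept-1* at 4.03. The gene *ept-1* was thus above both *cept-1* and *cept-2* on this scale, and *pcyt-2.1* was below *pcyt-1*. Whether *cept-1* and *cept-2* also act in the ethanolamine branch was not examined, so these levels do not compare the branches. The lowest 3 of the list were *set-2* (-2.75), a histone H3K4 methyltransferase gene, *mdt-15* (-1.02) and *cbs-2* (-0.16). The gene *sbp-1* lay at 0.65 on this scale, with an average of 2.39 log2 cpm as deposited. For *mdt-15* the average (0.20 log2 cpm as deposited) is given for no single group, so it does not check the labels.

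**Figure D4:**
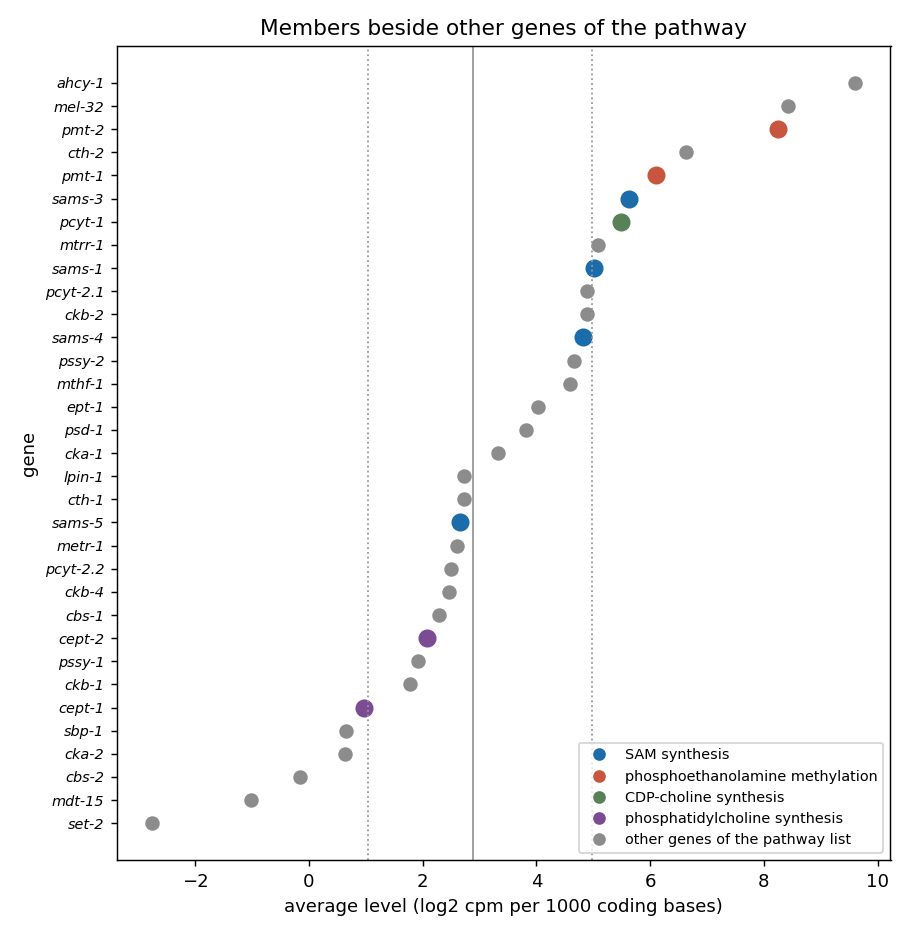
The 9 genes (coloured by step of the pathway) and the 24 other genes of the pathway list (grey), ordered by average level in log2 cpm per 1000 coding bases. The solid and dotted lines are the median and the quartiles of protein-coding genes; *ahcy-1* is highest at 9.61 and *set-2* lowest at -2.75.

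All 16 genes taken as markers of intestine, germ line, muscle, neurons, hypodermis and sperm were in the tables, with averages from 0.79 to 11.3 log2 cpm. The highest were the intestinal yolk protein genes *vit-6* (11.3) and *vit-2* (10.9), and the lowest was the cuticle collagen gene *dpy-7* (0.79). Markers of a tissue differed widely, since the intestinal genes *ges-1* (3.36) and *elt-2* (1.78) and the collagen gene *rol-6* (2.80) lay between these. The germ line genes were *pgl-1* (7.47), *cgh-1* (7.36), *gld-1* (5.72) and *glp-1* (4.04). Muscle genes were *unc-54* (7.12) and *myo-3* (4.01), and sperm genes *msp-142* (5.32) and *spe-11* (3.23). Per 1000 coding bases *vit-6* lay at 9.04 and *vit-2* at 8.67. The neuronal genes *snb-1* and *unc-64* lay at 8.62 and 4.26 on that scale. The coding sequence of *snb-1* is short, with 327 of 807 exonic bases. As deposited, *snb-1* and *unc-64* lay at 7.01 and 4.06 log2 cpm. With exonic bases instead, *snb-1* lay at 7.31, *unc-64* at 2.70 and *vit-2* at 8.64. The libraries are of whole worms, in which fewer cells of a type and less RNA per cell cannot be told apart.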

How the data were processed

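Reads were paired-end, and the authors mapped them to the ce11 genome using HISAT2 2.0.5, followed by StringTie 1.3.3. The submitters' processing notes also name bcl2fastq 2.17.1.14. For comparisons the authors used limma 3.24.15 with voom and edgeR 3.10.5, and excluded genes with a cpm under 1. The sources used here do not say in how many libraries that limit had to be met. The averages run down to -2.28 log2 cpm. The values used here are the authors' deposited averages, in log2 cpm from voom, of 12749 genes in the tables of the 25 °C groups and of the wild-type groups and of 12443 in the table of the 15 °C groups. The 5 other numeric columns of each table hold the authors' fold changes, moderated t, p-values, adjusted p and log odds, and were not used. Since no values per library were at hand, no test was run.

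Each gene's average was taken over the tables it is in. Levels per 1000 bases subtract the log2 of the longest annotated coding sequence, or of the union of exons (Ensembl release 115). A coding length was found for 99.4% of protein-coding genes. Planned use of RefSeq protein lengths was replaced by these. Ranks count the highest as 1, and a percentile is the share of genes below. The functions for rank, percentile and interval union were checked on made-up numbers. That check covers neither the reading of the annotation nor the choice of genes ranked against. The members and lists were chosen with earlier results of these data known. All members are named, and of the list the highest 3, the lowest 3 and genes near a member in role. Python 3.11.15, numpy 2.4.6, pandas 2.3.3 and matplotlib 3.10.9 were used.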

Additional observations from a re-analysis of the deposited data

How the results depend on the processing

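On the levels as deposited, the median percentile of the 9 members among all genes was 79.7. It was 72.6 when ranked only against genes at 1 log2 cpm or more, which leaves out lower genes, 75.3 per 1000 coding bases and 70.7 per 1000 exonic bases. It was 79.2 among genes in all 3 tables and in the table of the 15 °C groups alone, 79.1 among protein-coding genes, and 79.7 in each of the other tables alone. The exonic scale and the protein-coding restriction were chosen after seeing the data. Single members ran from 28.8 to 97.9 as deposited, from 24.4 to 95.5 per 1000 coding bases and from 25.7 to 95.8 per 1000 exonic bases. Among genes at 1 log2 cpm or more they ran from 3.91 to 97.2, and the low members moved most. The gene *cept-1* went from 28.8 to 3.91, *cept-2* from 44.5 to 25.0 and *sams-5* from 51.0 to 33.8. Leaving out genes below all members must lower each percentile, the low ones most, so this says nothing about these members. No paired analysis was possible because the tables hold no values per library, and for the same reason leaving out a replicate was not run. Differences between table averages were not used as results, since the averages of all shared genes are equal between tables apart from a common shift. Protein identity and promoter motifs were not run. The spread between libraries and the depth behind each average are unknown, which limits every ordering of genes with close averages.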
